A study of Homo sapiens with 4 samples.

Results

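EGR1 and the AP-1 immediate early genes are described here across 4 HCT116 libraries, with 10 genes in all, namely EGR1, the FOS family genes FOS, FOSL1 and FOSL2, the JUN family genes JUN, JUNB and JUND, ATF3, IER2 and IER3. They were picked by gene symbol from the 19974 rows of each table, and all 10 were found and tested among 11222 genes. The list was chosen from earlier results of these same libraries, in which EGR1, JUN and FOS were higher after LINC00152 suppression. The values of these genes between the groups are therefore a description, and no test of them is given.

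HCT116 is an established human line of colorectal carcinoma. Cells grown in DMEM with serum were transfected for 36 h with 100 nM of a control non-targeting siRNA (si-NC) or of LINC00152 siRNA (si-152), with 2 biological replicates in each group, and total RNA was sequenced. Each of the 4 libraries gives a value for every symbol, taken to be FPKM (fragments scaled to transcript length and to depth), a level that can be compared between genes. LINC00152 itself was not analysed here, so the extent of its suppression in these libraries is not given. The epithelial markers EPCAM, CDH1, KRT8, KRT18, KRT19 and CDX2 were all at 8.29 FPKM or more in every library, whereas the intestinal marker VIL1 was at 0.0567 FPKM or below. Of the markers of other cell types, PTPRC and COL1A2 were listed at 0 in all 4 libraries, CD3E and PECAM1 were at 0.0390 FPKM or below, ALB was at 0.754 FPKM or below, and COL1A1 was at 7.02 to 7.98 FPKM. The number of reads is unknown.

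Immediate early genes are switched on within minutes of a growth factor, serum or stress signal, without the need for new protein. The ERK kinases act on ELK factors and SRF (serum response factor), which bind CArG boxes, and CREB factors act through the cyclic AMP response element (CRE). FOS and JUN proteins pair through leucine zippers to form AP-1, which binds its own short site, while EGR1 is a zinc finger factor that binds GC-rich sites, and many of these mRNAs are short-lived because of AU-rich elements in their 3′ ends.

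To show what the start of these genes holds, the promoter windows of the 3 genes that stood highest in the contrast are printed first, from 250 bases before to 50 bases after the RefSeq start (GRCh38.p14), 5′ to 3′ on the strand of the gene. The windows are chr5:138465229-138465528 on the plus strand for EGR1, chr14:75278578-75278877 on the plus strand for FOS and chr1:58783998-58784297 on the minus strand for JUN. That of JUND, chr19:18281573-18281872 on the minus strand, is shown beside them because its level differed little, as did those of JUNB and ATF3. A link between promoter motifs and levels was not tested. Capitals mark CArG boxes and CRE cores (TGACGT on either strand) in EGR1, the CRE core and the TATA box in FOS, an AP-1 site variant (TGACATCA) in JUN, and a full CRE (TGACGTCA) and a CRE core in JUND.
EGR1: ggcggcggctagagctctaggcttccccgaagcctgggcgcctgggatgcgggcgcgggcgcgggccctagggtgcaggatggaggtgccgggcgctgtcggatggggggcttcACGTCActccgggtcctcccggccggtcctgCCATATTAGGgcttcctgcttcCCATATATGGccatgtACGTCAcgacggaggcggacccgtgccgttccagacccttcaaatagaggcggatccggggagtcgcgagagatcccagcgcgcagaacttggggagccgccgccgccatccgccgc
FOS: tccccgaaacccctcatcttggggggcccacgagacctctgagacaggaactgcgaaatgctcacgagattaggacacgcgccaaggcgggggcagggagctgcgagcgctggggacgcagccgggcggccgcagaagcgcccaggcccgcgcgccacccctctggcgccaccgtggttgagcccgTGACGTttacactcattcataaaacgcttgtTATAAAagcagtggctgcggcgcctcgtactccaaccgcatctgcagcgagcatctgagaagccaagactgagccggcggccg
JUN: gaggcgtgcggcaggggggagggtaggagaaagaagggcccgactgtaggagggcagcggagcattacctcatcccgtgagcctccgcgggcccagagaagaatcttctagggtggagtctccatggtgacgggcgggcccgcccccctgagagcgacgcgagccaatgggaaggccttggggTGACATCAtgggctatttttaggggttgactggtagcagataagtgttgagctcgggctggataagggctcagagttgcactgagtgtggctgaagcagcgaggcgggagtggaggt
JUND: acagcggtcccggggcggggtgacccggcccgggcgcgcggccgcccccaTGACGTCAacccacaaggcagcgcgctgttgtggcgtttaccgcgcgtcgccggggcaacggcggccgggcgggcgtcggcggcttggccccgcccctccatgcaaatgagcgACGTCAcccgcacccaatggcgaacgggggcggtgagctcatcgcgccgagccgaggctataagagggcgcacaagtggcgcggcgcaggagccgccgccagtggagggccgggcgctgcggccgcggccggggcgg

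The EGR1 window held 2 CArG boxes, CCATATTAGG from -105 to -96 and CCATATATGG from -83 to -74, where -1 is the base before the start. The 2 CArG boxes lay between a pair of CRE cores at -136 and -67. A CArG box was found in 1.29% of all 35116 promoter windows of this length, and in 1 of the 9 windows of these genes. Sites more than 250 bases before the start were not searched, so a gene without a match here may hold one further upstream. The FOS window had a CRE core at -64 and a TATA box (TATAAA) at -33. JUN had the variant TGACATCA at -67, a site that JUN dimers with ATF2 are known to bind, and the upstream start of ATF3 had the same variant at -123. This variant was found in 2.61% of all windows. The full CRE of JUND lay at -200, and 1.85% of all windows held one. FOSL2 had an AP-1 site (TGACTCA or TGAGTCA) at 5 to 11 bases after its start, found in 4.95% of windows, and a CRE core at -66. The CRE core was present in 4 of the 9 windows and in 7.98% of all windows. This count includes the full CRE, which contains the core. A TATA box was present in 3 of the 9 (11.5% of all windows). It began at -33 in FOS, at -31 in JUNB and at -230 for the downstream start of ATF3. GC boxes (GGGCGG) were present in 6 of the 9 (45.0% of all windows). The ETS core was searched only in the form CCGGAA, which was in the window of IER2 alone (17.2% of all windows). Shorter forms of the ETS core were not searched. No match to the EGR1 site (GCGTGGGCG or GCGGGGGCG, 5.77% of all windows) or to GGAATG, the core bound by the TEAD partners of YAP1 (14.0% of all windows), was found in the 9 windows. Both strands were searched. FOSL1 and IER3 had no window in the table, and ATF3 had a pair of starts.

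**Figure D1:**
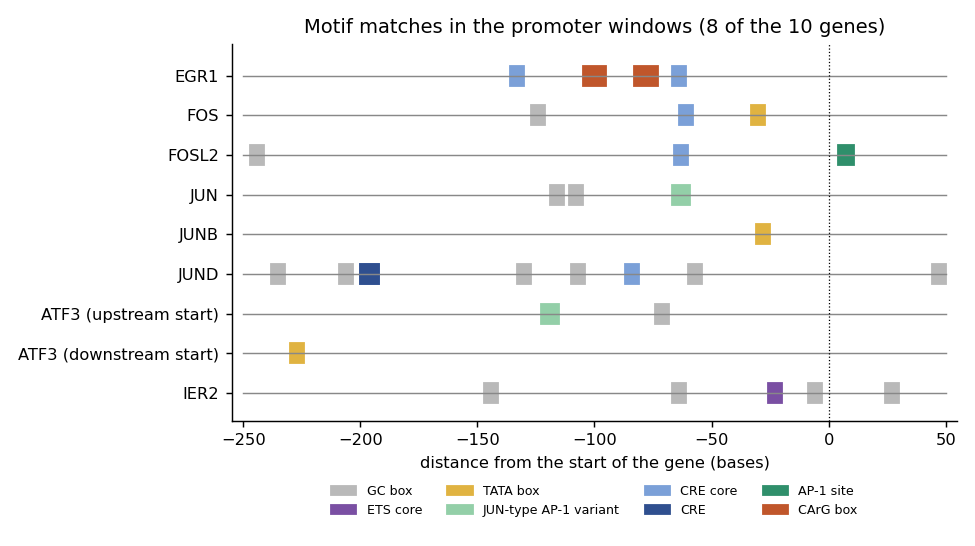
Motif matches in the promoter windows of 8 of the 10 genes, by distance in bases from the start of the gene (x axis), with 1 line per window and 1 coloured box per match. Within these windows, the 2 CArG boxes (orange) stand in EGR1 alone, between -105 and -74, and the full CRE (dark blue) in JUND alone.

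EGR1, which spans chr5:138465490-138469315 (plus strand, GRCh38), was at 12.4 FPKM in si-NC replicate 1 and 11.6 FPKM in si-NC replicate 2. It was at 34.7 FPKM in si-152 replicate 1 and 25.2 FPKM in si-152 replicate 2. Both si-152 libraries thus lay above both si-NC libraries, with means of 29.9 ± 6.73 FPKM (SD, n = 2) against 12.0 ± 0.538 FPKM (SD, n = 2), a ratio of 2.49. On the log2(FPKM + 1) scale, the fitted difference was 1.23 (standard error 0.19), which ranked 9 among the increases of 11222 genes. It was 1.42 between the libraries numbered 1 and 1.05 between those numbered 2. In bulk RNA, more cells that express a gene and more RNA of it per cell cannot be told apart.

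The other EGR genes were low. EGR2 ranged from 0.366 to 0.847 FPKM, EGR3 from 0.208 to 0.639 FPKM and EGR4 from 0.139 to 0.235 FPKM over the 4 libraries, and none passed the filter of at least 1 FPKM in at least 2 libraries. EGR1 made up 93.3% and 93.4% of the summed FPKM of the 4 EGR genes in si-NC and 95.4% in each of the si-152 libraries. The EGR1 transcript (2 exons, longest transcript 3138 bases) was therefore nearly all of the EGR family message in both groups.

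The FOS family is expressed in these cells mainly as FOSL1, which encodes FRA1. FOSL1 stood at 55.3 and 70.4 FPKM with si-NC and at 75.1 and 80.7 FPKM with si-152, and its groups did not overlap. The fitted difference was 0.31 (standard error 0.18), with 0.43 in the first pair and 0.19 in the second. FOS itself was the lowest of the 10 genes, at 2.16 FPKM in each si-NC library and at 4.04 and 4.01 FPKM in si-152. The replicates of FOS lay close together (SD 0.00106 in si-NC and 0.0210 in si-152, n = 2), but 2 libraries measure a spread poorly. The counting error of FOS at this level is unknown, and the ratio of its means was 1.86. Its difference on the log2(FPKM + 1) scale was 0.67 (standard error 0.19), a scale that understates the change of a gene at this level, and it was 0.67 and 0.66 in the pairs. FOSL2, which encodes FRA2, stood at 6.12 and 4.96 FPKM with si-NC and at 9.98 and 6.33 FPKM with si-152. Its groups did not overlap, but the higher si-NC value and the lower si-152 value nearly met, and the fitted difference was 0.46 (standard error 0.23). FOSB, a family member outside the 10 genes, stood at 1.64 and 1.08 FPKM with si-NC and at 1.56 and 1.22 FPKM with si-152.

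Of the JUN family, JUN was the one whose groups stood apart. It stood at 44.3 and 41.5 FPKM with si-NC and at 68.5 and 67.9 FPKM with si-152, with means of 42.9 ± 1.93 FPKM and 68.2 ± 0.448 FPKM (SD, n = 2). The groups were well apart, and the fitted difference of 0.66 (standard error 0.16) was 0.62 in the first pair and 0.70 in the second. JUNB, an AP-1 subunit often opposed to JUN in its effects on growth, stood at 148 and 168 FPKM with si-NC and at 147 and 184 FPKM with si-152. JUND, which is expressed in resting cells as well, was the highest of the 10 genes, at 220.5 and 253.5 FPKM in si-NC and at 200.5 and 272 FPKM in si-152. Both genes overlapped between the groups, and their fitted differences were 0.06 (standard error 0.20) and -0.02 (standard error 0.22). The pairs went in opposite directions for each of them. The sign for JUND depended on the scaling, and the difference was between -0.04 and 0.12 over the 3 scalings tried.

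Ratios of the deposited values within a library stay the same when the whole library is multiplied by a factor, as size factors and TMM do, but not under quantile normalization. JUN made up 10.7% and 8.98% of the summed FPKM of the 3 JUN genes in si-NC, and 16.5% and 13.0% in si-152. JUNB held between 35.1% and 36.3% in all 4 libraries. JUND held 53.4% and 54.8% in si-NC and 48.1% and 51.9% in si-152. The shares are parts of 1 total, so a larger share of JUN must lower the rest. The FPKM of JUND itself overlapped between the groups. The summed FPKM of the JUN genes was 413 and 463 in si-NC and 416 and 523 in si-152, which overlapped. FOSL1 held from 82.8% to 89.6% of the summed FPKM of FOS, FOSB, FOSL1 and FOSL2, and these shares overlapped between the groups. The share of FOS was 3.31% and 2.75% in si-NC and 4.46% and 4.35% in si-152. The FOS family as a whole was at 13.7% and 14.5% of the FOS and JUN families together in si-NC, and at 17.9% and 15.0% in si-152.

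**Figure D2:**
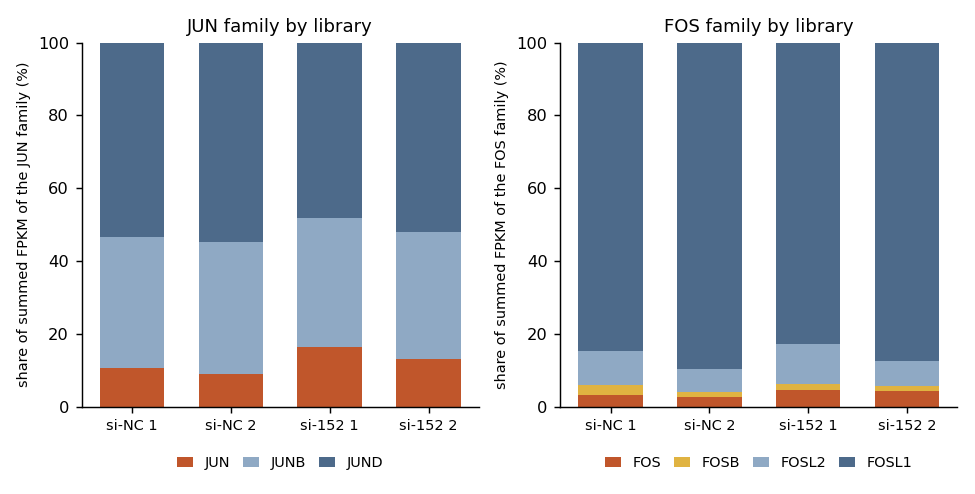
Share (%, y axis) of each gene in the summed FPKM of the JUN family (left) and the FOS family (right), with 1 stacked bar for each of the 4 libraries. The share of JUN is 8.98% to 10.7% in si-NC and 13.0% to 16.5% in si-152, and FOSL1 is over 80% of the FOS family in every library.

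ATF3 is a stress-inducible factor of the ATF/CREB family that pairs with JUN proteins. It stood at 54.1 and 45.6 FPKM with si-NC and at 51.1 and 43.9 FPKM with si-152, so the groups overlapped, and the fitted difference was -0.07 (standard error 0.18). IER2, which encodes a nuclear protein that acts on transcription, stood at 144 and 147 FPKM with si-NC and at 179 and 229.5 FPKM with si-152. Its groups did not overlap, with a difference of 0.48 (standard error 0.20) and a larger one in the second pair (0.64) than in the first (0.32). IER3, which encodes a small protein linked to cell survival, stood at 5.77 and 6.98 FPKM with si-NC and at 4.66 and 9.52 FPKM with si-152. The si-152 libraries lay on both sides of the si-NC libraries, and the pairs went in opposite directions (-0.26 and 0.40). An antisense gene shares exonic bases with IER2 and another with IER3 in GENCODE v29 (AC011446.2 and IER3-AS1). Whether the values used strand is not stated, so reads of these partners cannot be told apart.

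**Figure D3:**
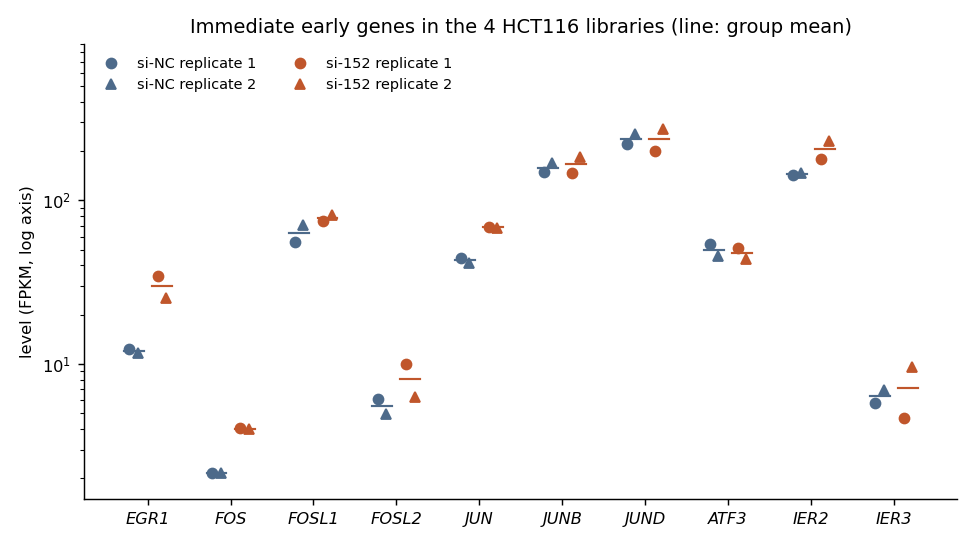
Level (FPKM, log axis) of the 10 genes in each library, with circles for replicate 1, triangles for replicate 2 and a short line at each group mean. The orange si-152 points of EGR1, FOS, FOSL1, FOSL2, JUN and IER2 lie above the blue si-NC points, and those of JUNB, JUND, ATF3 and IER3 overlap with them.

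By mean level in si-NC, the order from high to low was JUND, JUNB, IER2, FOSL1, ATF3, JUN, EGR1, IER3, FOSL2 and FOS, from 237 to 2.16 FPKM. JUNB and IER2 differed by less than the SD of JUNB (14.1 FPKM), and IER3 and FOSL2 overlapped. In si-152, IER2 stood above JUNB in both libraries (ratio 1.22 and 1.25, against 0.971 and 0.873 in si-NC), and JUN stood above ATF3 (ratio 1.34 and 1.55, against 0.819 and 0.910). FOSL2 and IER3 overlapped in si-152 too. The 10 genes together summed to 692 and 751 FPKM in si-NC and to 775 and 922 FPKM in si-152.

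Of the 10 genes, 6 had both si-152 libraries above both si-NC libraries (EGR1, FOS, FOSL1, FOSL2, JUN and IER2) and 0 had both below, where 16.5% and 13.9% of all tested genes did so. The same 6 genes were higher in both same-numbered pairs (35.6% of all tested genes), ATF3 was lower in both (27.3% of all tested genes), and the other 3 went in opposite directions. With size factors FOSL1 no longer stood apart, and with quantile normalization JUNB and JUND did too. Since the list was chosen from this contrast, nothing is read from these counts. The median difference of the 10 genes was 0.39, against 0.02 for all tested genes. It was 0.38 in the first pair and 0.35 in the second, where the medians of all tested genes were -0.03 and 0.07.

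**Figure D4:**
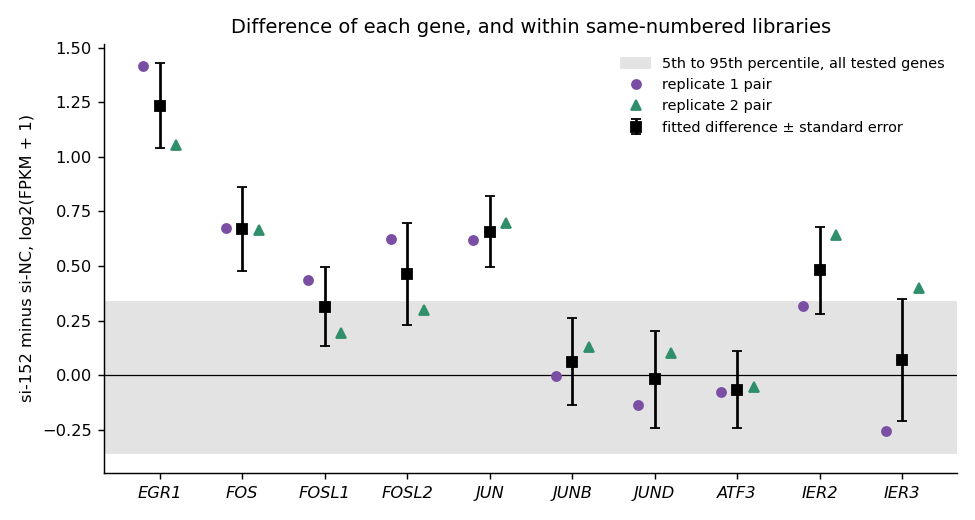
Difference between si-152 and si-NC in log2(FPKM + 1) (y axis) for each of the 10 genes, with the fitted value and its standard error (black), the libraries numbered 1 (purple circles) and those numbered 2 (green triangles), over the 5th to 95th percentile of all tested genes (grey). EGR1, at 1.23, stands highest, followed by FOS and JUN at 0.67 and 0.66.

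The mRNAs were then compared by their 3′ ends, since the pentamer ATTTA is the core of AU-rich elements. In GENCODE v29, 9 of the 10 genes had ATTTA in their longest annotated 3′-UTR, and IER2 had none in 1050 bases, while 72.4% of 10753 tested genes had at least 1. The densest were IER3, with 6 in 903 bases (6.64 per kilobase), and FOS, with 5 in 806 bases (6.20 per kilobase). Both exceeded the 95th percentile of the tested genes (5.94 per kilobase), whose median was 1.62. EGR1, with 1 in 1234 bases, lay below that median, and JUN, with 3 in 1287 bases, lay above it. The longer word TTATTTA was found in FOS, FOSL2 and ATF3, and in 32.7% of tested genes. Among the genes that were higher in si-152, the density of ATTTA ran from 0 per kilobase in IER2 to 6.20 in FOS. Whether mRNA decay differed between the groups was not tested. FOS carries its overlapping pentamers at chr14:75282057-75282086 on the plus strand, IER3 has its closest at chr6:30743648-30743677 on the minus strand, and the sole pentamer of EGR1 is at chr5:138469063-138469092 on the plus strand. These 30-base windows follow as DNA on the strand of the gene, with each ATTTA in capitals.
FOS: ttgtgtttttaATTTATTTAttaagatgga
IER3: taattaatATTTAtatgtATTTAtgtacgt
EGR1: actgaaaatgtaaATTTAtaaatatattca

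To place these genes in their pathway, 8 lists were written by role, with 172 genes in all. They were put together with earlier results of these data known, but not by how their genes moved, and a gene on more than 1 list counts in each. Of the 150 list genes that could be tested, 3 were called higher (RHOB, BTG2 and NAB2) and 2 lower (ATF5 and HPSE) when limma gave less than 0.05 before adjustment and the fold change exceeded 1.5. Of all tested genes, 0.597% were called higher and 1.06% lower in this way. After adjustment in limma 0 of the 150 stayed below 0.05, beside 0.0178% of all tested genes, while 10 of the 150 and 492 of all 11222 were below it before.

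Among 42 other immediate early genes, 36 were tested, 2 were called higher and 0 lower, and the median difference was 0.06. RHOB, a small GTPase whose gene is itself an immediate early gene, stood at 130.5 and 129.6 FPKM with si-NC and at 234 and 248 FPKM with si-152, which differed by 0.89 (standard error 0.18) with an adjusted p of 0.429 in limma. BTG2, an antiproliferative protein that recruits the CCR4-NOT deadenylase, stood at 11.1 and 9.77 FPKM with si-NC and at 18.9 and 17.0 FPKM with si-152, which differed by 0.73 (standard error 0.18) with an adjusted p of 0.595 in limma. In each of these genes the groups were well apart. KLF4 and GADD45B lay lower in si-152, with differences of -0.51 and -0.45, and KLF6 lay higher (0.54), but these missed the fold threshold. With 1 library left out, KLF4 ranged from -0.67 to -0.34, GADD45B from -0.60 to -0.30 and KLF6 from 0.26 to 0.83. ID1, the most abundant of the list, stood at 474 and 600.0 FPKM with si-NC and at 388 and 528 FPKM with si-152, which overlapped. Of the 36 genes, 11 had both si-152 libraries above and 3 both below, beside 16.5% and 13.9% of all tested genes.

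The list of EGR1 co-regulators and targets had 16 genes tested of 20. NAB2, a corepressor that binds EGR1 and is also induced by it, stood at 13.6 and 12.5 FPKM with si-NC and at 21.9 and 20.1 FPKM with si-152. The difference was 0.65 (standard error 0.17), being 0.65 and 0.64 in the pairs, with an adjusted p of 0.715 in limma. The ratio of EGR1 to NAB2 within a library was 0.913 and 0.927 in si-NC and 1.58 and 1.25 in si-152. HPSE, which encodes heparanase, was lower, at 4.30 and 3.43 FPKM against 2.65 and 1.71 FPKM, which differed by -0.62 (standard error 0.22) with an adjusted p of 1.00 in limma, and it was not called without si-NC replicate 1 (-0.49) or without si-152 replicate 2 (-0.41). GDF15 was the most abundant of the list, at 2604 and 2542 FPKM in si-NC and at 1620 and 2471 FPKM in si-152, so that si-152 replicate 1 lay well below the other 3 libraries. The median of the list was -0.03.

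Of the 30 tested genes (of 32) on the list of SRF and kinase inputs, 24 had a difference above 0, as had 6085 of all 11222. Of the 30, 22 were higher in both pairs, beside 35.6% of all tested genes. The median was 0.16, but 0 were called by limma in either direction, with 2 at an unadjusted p under 0.05. SRF stood at 11.1 and 10.4 FPKM with si-NC and at 14.9 and 14.0 FPKM with si-152 (difference 0.39, standard error 0.17). ELK3, a partner of SRF, stood at 17.6 and 15.3 FPKM with si-NC and at 24.7 and 23.3 FPKM with si-152 (difference 0.52, standard error 0.17). In both genes the groups did not overlap, and their adjusted p-values by limma were 1.00 and 0.887. Among the alternatives that kept all 4 libraries, the unadjusted p of SRF by limma was above 0.05 without the trend and with at least 1 FPKM in every library. With 1 library left out, SRF differed by 0.35 to 0.44 and ELK3 by 0.43 to 0.61. MAP2K2, the most abundant of the list, overlapped between the groups.

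The 28 AP-1 target genes had 19 tested and 0 called by limma in either direction, with 0 at an unadjusted p under 0.05. Their median was -0.05, and 4 of the 19 had both si-152 libraries above and 6 both below, beside the 16.5% and 13.9% of all tested genes. MMP1, MMP3, MMP7, MMP9, MMP10, MMP13, SPP1, IVL and GJA1, all textbook AP-1 targets, did not pass the filter in these cells. HMGA1, the most abundant, stood at 1611 and 2046 FPKM with si-NC and at 1557 and 1803 FPKM with si-152. Of the 15 tested AP-1 dimer partners (of 18), 1 was called, with a list median of 0.12. This was ATF5, a stress-induced factor that is also on the list of stress inputs to ATF3. ATF5 stood at 25.5 and 33.5 FPKM with si-NC and at 18.5 and 18.4 FPKM with si-152, which differed by -0.63 (standard error 0.18) with an adjusted p of 0.760 in limma. Without si-NC replicate 2 the difference of ATF5 was -0.44 and it was not called. The stress list (15 tested of 15) had no other call and a median of -0.11, and its most abundant gene ATF4 stood at 571 and 711 FPKM with si-NC and at 437 and 575 FPKM with si-152.

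Of the 27 genes of AU-rich mRNA decay, all were tested and BTG2 was the sole call, with a median of 0.07. HNRNPD was listed at 0 in si-152 replicate 1 and at 136 to 159.6 FPKM in the other 3 libraries. Its difference of -3.56 (standard error 1.68), the lowest of all tested genes, rests on that library. In the deposited values, 6 genes were listed at 0 in a library and above 20 FPKM elsewhere, HNRNPD among them. ZFP36, which encodes the decay factor TTP, stood at 76.2 and 73.1 FPKM with si-NC and at 82.2 and 77.4 FPKM with si-152, with a difference of 0.09 (standard error 0.17). ZFP36 was named here after its values were seen. The 11 genes of AP-1 protein turnover had 0 calls by limma and 0 at an unadjusted p under 0.05, with a median of 0.04, and TRIB1 was the most abundant (114 to 120.1 FPKM).

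**Figure D5:**
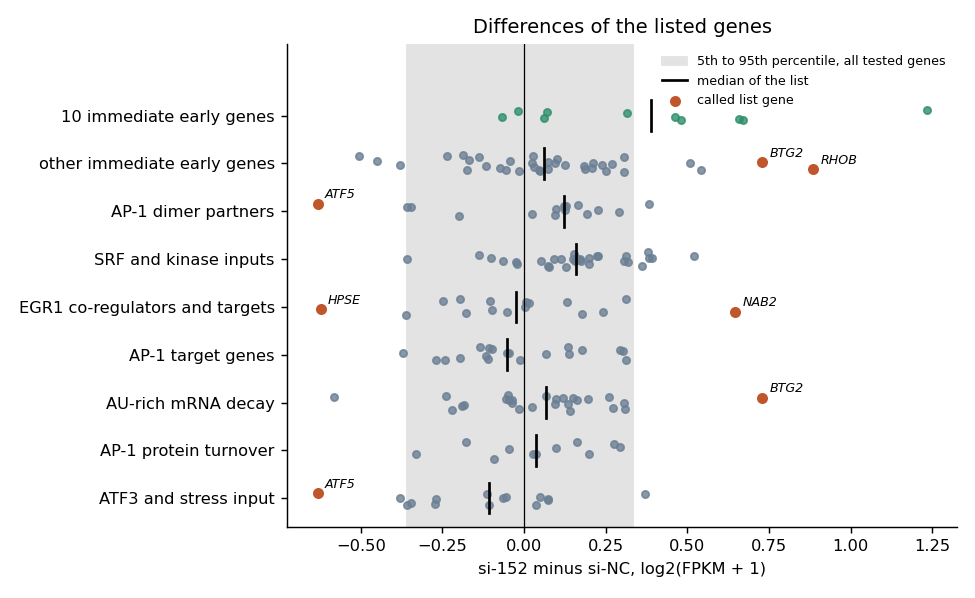
Difference between si-152 and si-NC in log2(FPKM + 1) (x axis) for the tested genes of each list, with list medians as black lines, called list genes in orange and the 5th to 95th percentile of all tested genes in grey. HNRNPD, which is listed at 0 in 1 library, is left out, and the 10 immediate early genes (green) carry no call marks because they were chosen from this contrast.

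The genes whose pattern was most like that of EGR1 were sought over the 4 libraries, by the Euclidean distance of log2(FPKM + 1) centred on each gene's mean. The nearest 5 of the tested genes were GANAB (distance 0.252), ATF6B (0.321), G3BP2 (0.338), TPM4 (0.396) and LOC105376752 (0.455). GANAB stood at 59.1 and 62.7 FPKM with si-NC and at 143 and 127 FPKM with si-152, a larger level than EGR1 with a similar difference. ATF6B and LOC105376752 were below 1 FPKM in both si-NC libraries and passed the filter through si-152 alone, so the filter itself favours a pattern like that of EGR1 in them. None of the other 9 immediate early genes was among the nearest 5. With 4 libraries, this likeness is mainly a similar size of difference between the groups.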

How the data were processed

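RNA of HCT116 cells was sequenced in 4 libraries, 2 with si-NC and 2 with si-152, and each title gave the group and the replicate number. For every library the authors deposited a list of symbols, each with a value. The unit is not named, and the deposited values were taken to be FPKM, as they have decimals, fall to exact 0 in many genes and sum to 424754 to 534311. The submitters' processing notes name Trimmomatic, TopHat, HISAT2, HTSeq, DESeq and the build GRCh38, without roles. The authors' DESeq test needs counts, so limma was used in its place. The number of reads is unknown; the most frequent ratio of the lowest values to si-NC replicate 1 was 0.901 to 1.11, so depths were similar, and no counting interval can be given. The 28 symbols that read as dates were kept.

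Values were tested as log2(FPKM + 1). A gene was tested if 2 or more libraries reached 1 FPKM, which left 11222. These were fitted by limma 3.58.1 in R 4.3.3, without scaling, with the variance allowed to follow the mean level, and adjusted by Benjamini-Hochberg. A gene was called when its unadjusted p was below 0.05 and its fold change exceeded 1.5, a p and a fold change that the study states for its own comparison of these libraries. With 2 against 2 libraries, the smallest two-sided exact permutation p is 0.333, so no such test is given. Alternatives changed the pseudocount, filter, scaling (size factors, TMM or trimmed mean of M values, quantile), variance trend, replicate block and fold threshold, or left out each library. The genes and lists were chosen with earlier results of these data known. Named list genes are those called or at an unadjusted p under 0.05, and the most abundant of each list. Beyond this rule, low genes and those behind a count are named, after their values were seen. Gene models came from GENCODE 29 (GRCh38) and promoters from RefSeq (GRCh38.p14), matched by symbol for 8 of the 10 genes. The motifs TGACATCA, TGACGT and GGGCGG were added after the other motifs had been searched. Protein sequences were not used here, and 1 marker of another cell type is not reported here.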

Additional observations from a re-analysis of the deposited data

How the results depend on the processing

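The fit was repeated under 12 alternatives in which all genes were refitted, and with a fold change above 2. EGR1, FOS, FOSL1, FOSL2, JUN and IER2 were higher in si-152 under all 12, but only the 3 scalings could have changed this. The filters, the trend and the block leave a gene's own difference as it is. Both si-152 libraries of these 6 genes lay above both si-NC libraries. A smaller pseudocount or a left-out library therefore cannot reverse the sign. EGR1 was between 1.01 and 1.46, FOS between 0.63 and 0.87 and JUN between 0.61 and 0.70. JUNB, JUND, IER3 and ATF3 changed sign in at least 2 of the 12 alternatives. With single libraries left out, the median of the 10 genes was 0.28 to 0.44. Leaving out a library cannot make groups that stand apart overlap, so the same 6 genes stood apart in every such fit. Without si-152 replicate 1, JUNB, JUND and IER3 also stood apart with si-152 higher, and ATF3 with si-152 lower. Without si-152 replicate 2, JUNB, JUND and IER3 stood apart with si-152 lower, as did ATF3 without si-NC replicate 2. With size factors 5 stood apart (not FOSL1), and with quantile normalization 8 (also JUNB and JUND). Without si-NC replicate 1 FOSL1 was 0.14, and without si-NC replicate 2 it was 0.49. FOSL2 was 0.17 without si-152 replicate 1 and 0.75 without si-152 replicate 2, and IER2 was 0.30 without si-152 replicate 2. Over all tested genes the calls with 1 library left out were 112 to 231 higher (67 with all libraries) and 106 to 377 lower (119), those among list genes 3 to 5 higher and 2 to 6 lower, and 45 to 78 genes had an adjusted p under 0.05 by limma (2 with all libraries). The highest counts of calls came without si-NC replicate 1 (231 higher) and without si-152 replicate 2 (377 lower), and the calls without si-NC replicate 2 (112 and 202) and si-152 replicate 1 (136 and 106) were nearer to those with all libraries. Such fits assume that a lone library varies like the others. RHOB, BTG2 and NAB2 were called under all 12 alternatives, with adjusted p-values from 0.0161 to 0.875 for RHOB, 0.0313 to 1.00 for BTG2 and 0.0410 to 1.00 for NAB2. A fold change above 2 left 11 genes higher and 20 lower. An adjusted p under 0.05 by limma was reached by 2 genes, by 1 with a pseudocount of 0.1, with no filter, with each of the 3 scalings and without the trend, and by 0 with at least 1 FPKM in every library (458 at an unadjusted p under 0.05). Same-numbered libraries deviated together (correlation 0.52 across genes), but 2 pairs and the labels do not show that the numbers pair the samples. With the replicate number as a block, 78 genes had an adjusted p under 0.05 by limma, among them RHOB, BTG2 and NAB2 of the list genes. An unadjusted p under 0.05 by limma was reached by 1893 genes with the block and by 492 without it. No list call was lost, and HNRNPD, which is listed at 0 in 1 library, was also called lower. Reads per library are unknown, so low values, such as those of FOSB near 1 FPKM and those of FOS, carry an unknown counting error.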
